A study of Mus musculus with 4 samples.

Results

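The mouse miRNAs mmu-miR-199a-3p, mmu-miR-199a-5p, mmu-miR-199b*, mmu-miR-214 and mmu-miR-214* (named without the prefix from here on) were followed across 4 microarrays of neural stem and progenitor cells (NSPCs). They were chosen by name, from a rule of 6 names, because the miR-199 and miR-214 signals were higher on the arrays titled NFIA OE. The array carried 5 of the 6 names among its 611 mouse miRNAs, and mmu-miR-199b had no probe of its own, because the array's annotation lists it under the miR-199a-3p probes. Of these 5 miRNAs, 4 were detected on at least 1 array and 2, miR-199a-3p and miR-199b*, on all 4 arrays. Because the difference by title chose them, it is described here without a test, and tests were kept for the difference by passage.

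miR-214 and part of the cell's miR-199a are cut from the long noncoding RNA Dnm3os, which is transcribed antisense to the dynamin gene Dnm3. The locus is best known from mesenchyme, where the transcription factor Twist1 has been reported to act on it, and loss of Dnm3os disturbs skeletal growth in mice. Each hairpin yields a 5p and a 3p strand, one of which usually accumulates while the other, the star strand of older names, is degraded. A mature miRNA recognises its targets mainly through its seed, bases 2 to 8.

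The cells came from mouse embryonic stem cells and grew as neurospheres in which NFIA-overexpressing and control cells were mixed. Flow sorting then separated them, per the series description. NFIA is a transcription factor that promotes the astrocyte fate. The 4 groups were primary neurospheres (passage 0, day 6 after the embryoid body stage) titled control, the same titled NFIA OE, secondary neurospheres (passage 1, day 12) titled control, and the same titled NFIA OE, with 1 array each. The labels do not describe the NFIA construct or the number of lines. The source names contradict the titles in both passages: an array titled control is sourced from an NFIA OE line, and one titled NFIA OE from WT cells. The titles were used for grouping here. Had the source names been used, each difference by title would have the opposite sign. With no NFIA probe on a miRNA array, neither label could be checked against the data.

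The sequences are shown because identical or shared sequences decide which loci a probe can read. RefSeq (GRCm38.p6) matched miR-199a-5p and miR-199a-3p by name, and the array's miR-214 and miR-214* are the strands now named miR-214-3p and miR-214-5p. miR-199b* had no entry of its own. Capitals mark the seed, and sequences run 5′ to 3′:
miR-199a-5p: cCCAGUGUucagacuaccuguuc
miR-199a-3p: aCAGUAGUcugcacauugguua
miR-199b-3p: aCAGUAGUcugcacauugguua
miR-214-3p: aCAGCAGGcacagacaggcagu
miR-214-5p: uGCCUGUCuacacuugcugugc

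The mature miR-199a-3p and miR-199b-3p sequences were identical, so the miR-199a-3p probes read the output of 3 hairpins, Mir199a-2 on chromosome 1, Mir199a-1 on chromosome 9 and Mir199b on chromosome 2. miR-199a-5p can come from 2 of them, Mir199a-1 and Mir199a-2. miR-214 and miR-214* come from the Mir214 hairpin alone. In the RefSeq gene table Mir199a-1 lies within the span of Dnm2 and Mir199b within that of Dnm1, each on the strand opposite its dynamin host. Among the mature mouse miRNAs of the table, the seed of miR-214-3p was shared by 1 other, miR-761. Those of miR-199a-5p and miR-214-5p were shared by no other listed miRNA (0). miR-199b*, having no entry, was not among those compared. Whether it shares the seed of miR-199a-5p, or how alike their sequences are, was therefore not read. miR-761 was on the array and had 0 spots well above background on each of the 4 arrays.

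The hairpins of the Dnm3os locus are given to show where the strands lie, with both mature strands in capitals. Mir199a-2 is at chr1:162217814-162217923 and Mir214 at chr1:162223368-162223477, both on the plus strand of GRCm38.p6. They begin 191 and 5745 bases after the annotated start of Dnm3os, and both lie inside its span. The gene table gives spans only, so exon or intron was not assigned.
Mir199a-2: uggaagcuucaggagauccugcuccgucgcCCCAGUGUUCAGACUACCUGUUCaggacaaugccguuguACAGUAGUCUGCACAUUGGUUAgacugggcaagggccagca
Mir214: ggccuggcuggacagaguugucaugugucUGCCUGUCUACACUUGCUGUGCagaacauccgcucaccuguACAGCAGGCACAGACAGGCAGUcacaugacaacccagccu

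**Figure D1:**
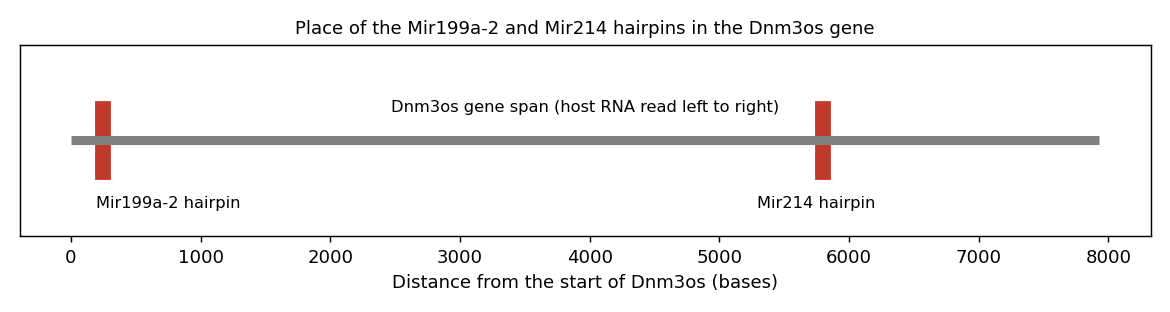
Map of the Dnm3os gene, with distance from its annotated start in bases on the horizontal axis, the gene span as a grey bar and the hairpins as red blocks. Mir199a-2 begins 191 bases and Mir214 5745 bases after the start.

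The window from 250 bases before to 50 after the Dnm3os start (chr1:162217373-162217672, plus strand, GRCm38.p6) is printed because Mir199a-2 and Mir214 lie inside Dnm3os. miR-199a and miR-214 were chosen for their shared direction by title, so that direction is no finding about this window. The miR-199a probes also read hairpins outside Dnm3os. Capitals mark E-boxes (CANNTG, which reads the same on both strands), the motif that Twist1 and related factors bind.
Dnm3os promoter: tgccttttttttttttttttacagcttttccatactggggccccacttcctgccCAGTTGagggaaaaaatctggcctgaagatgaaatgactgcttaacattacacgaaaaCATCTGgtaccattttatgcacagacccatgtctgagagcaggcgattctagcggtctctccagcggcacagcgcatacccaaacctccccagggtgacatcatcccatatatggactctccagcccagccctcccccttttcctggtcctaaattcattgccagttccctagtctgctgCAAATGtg
It held 3 E-boxes, beginning at positions -196, -138 and 42, with the start base as 0. Of 32851 promoter windows of the same length, 72.3% held at least 1 E-box and 17.6% held 3 or more. The NFI half-site TTGGC was not among its letters on either strand (0 matches, against 46.7% of windows with 1 or more). Nor was the full NFI palindrome, which contains the half-site and was found in 0.0365% of windows. These are letter matches in 1 window and say nothing about binding.

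Each of the 4 detected miRNAs was read by 2 probes of 10 spots, and miR-214* by 4 probes of 5 spots. Spot intensity is given as a percent of the array's own 75th percentile over probes detected on all 4 arrays, with the SD over spots, which is technical error only. A probe counted as detected when at least 50% of its unflagged spots were well above background by the scanner's call. The 75th percentile was lowest on the primary array titled control, at 167 intensity units, against 261 to 443 units on the others. The arrays detected 186 to 220 miRNAs, and their negative controls had medians of 2.92 to 3.72 units. All 4 arrays lay on 1 slide with 1 scan time. Titles fell in different columns and passages in different rows of the slide, so slide position cannot be told apart from the groups.

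**Figure D2:**
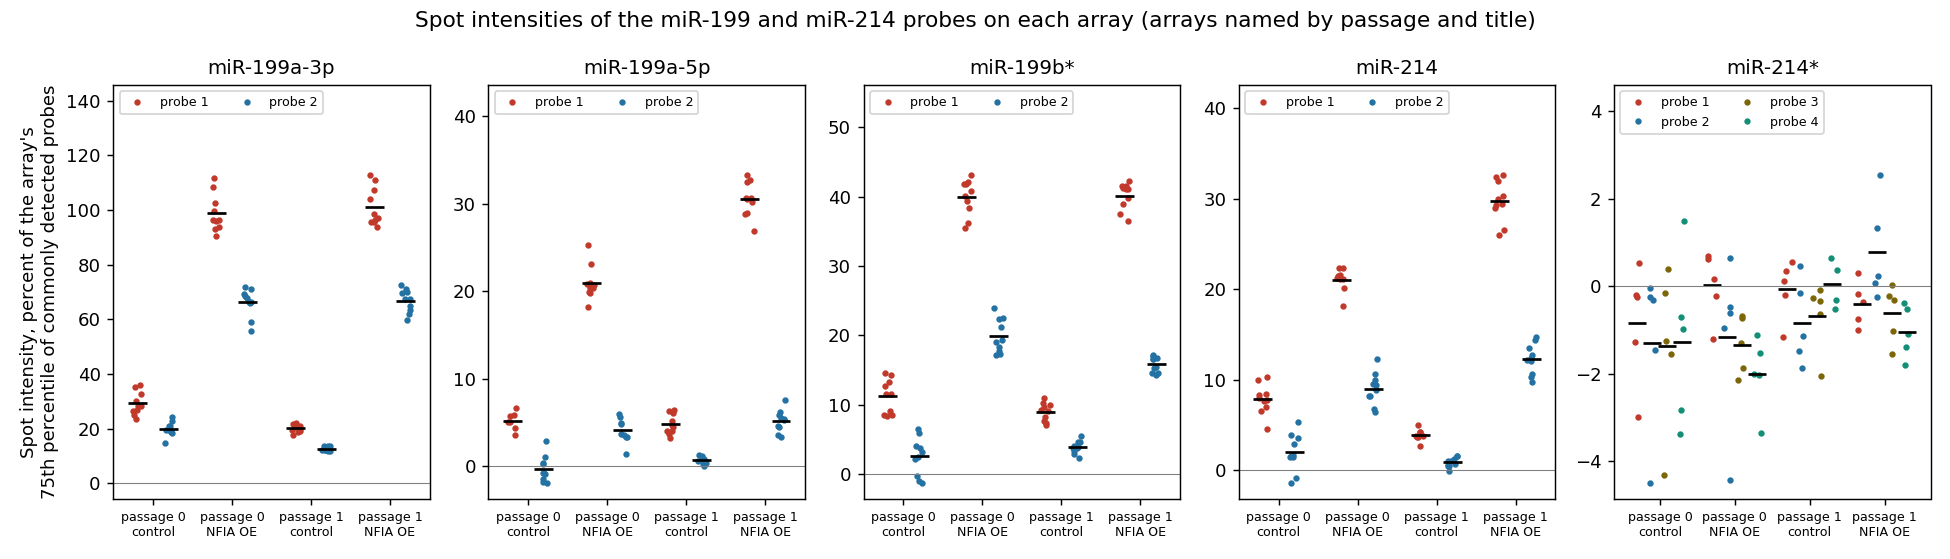
Spot intensities of each probe of the 5 miRNAs, as a percent of the array's 75th percentile (vertical axis, linear, a different range in each panel), on the 4 arrays named by passage and title. Points are single unflagged spots, colours are probes from brightest (probe 1) to dimmest, and black bars are means. For the brighter probes of miR-199a-3p, miR-199a-5p, miR-199b* and miR-214 the spots of the arrays titled NFIA OE lie above those of the arrays titled control, while miR-214* stays around 0.

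miR-199a-3p was well above background on every unflagged spot of every array. Its brighter probe stood at 29.2% ± 4.17 on the primary array titled control and 98.8% ± 6.81 on the primary array titled NFIA OE. In secondary neurospheres it stood at 20.2% ± 1.39 on the array titled control and 101.2% ± 6.94 on the array titled NFIA OE. The arrays titled NFIA OE were the high ones in both passages, and no spot of an array titled control reached them. In intensity units, the highest of 20 spots on the primary array titled control was 59.9 and the lowest on the primary array titled NFIA OE was 146. In secondary neurospheres these were 97.5 and 220 units.

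The dimmer miR-199a-3p probe repeated this order, at 19.95% ± 2.58 on the array titled control and 66.2% ± 5.08 on that titled NFIA OE in primary neurospheres. On the secondary arrays it was at 12.6% ± 0.815 and 66.8% ± 4.27. Over both probes the difference by title was 3.35-fold in primary and 5.15-fold in secondary neurospheres. The brighter probe gave log2 differences of 1.76 and 2.32, and the dimmer one 1.73 and 2.41. These are descriptions of 1 array against 1.

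miR-199b*, a strand of the Mir199b hairpin by its name, had the same pattern. Its brighter probe stood at 11.2% ± 2.46 under the control title and 39.9% ± 2.57 under the NFIA OE title at passage 0, and at 8.92% ± 1.32 and 40.1% ± 1.92 at passage 1. The difference by title was 3.56-fold in primary and 4.50-fold in secondary neurospheres. On the primary array titled control, 6 of 10 spots of this probe were well above background, just over the detection limit. The dimmer probe was well above background on all spots of the arrays titled NFIA OE, at 19.9% ± 2.42 and 15.8% ± 1.13. On the arrays titled control it was so on 0 of 10 and 1 of 10 spots, and it therefore did not enter the values over all 4 arrays.

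miR-199a-5p is the partner strand of miR-199a-3p. Its brighter probe had 10 of 10 spots well above background on each array titled NFIA OE, at 20.9% ± 1.94 in primary and 30.5% ± 1.97 in secondary neurospheres. On the arrays titled control it was at 5.21% ± 1.03, with 0 of 7 unflagged spots well above background, and at 4.83% ± 1.15, with 4 of 10. The level under the control title is thus only bounded. Setting the lowest detected signal of each control-titled array in its place, miR-199a-5p was at least 1.98-fold higher by title at passage 0 and at least 6.15-fold at passage 1. With normexp background correction these bounds were 1.05-fold and 2.41-fold. The other miR-199a-5p probe was not detected on any array (0 of 4).

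miR-214, whose only hairpin lies in Dnm3os, was likewise detected under the NFIA OE title in both passages and never under the control title. Its brighter probe stood at 21.1% ± 1.27 and 29.7% ± 2.25 on the primary and secondary arrays titled NFIA OE. On those titled control it was at 7.84% ± 1.65 and 3.88% ± 0.638, with 0 unflagged spots well above background on either. The dimmer probe was at 9.02% ± 1.74 and 12.3% ± 1.68 against 1.96% ± 2.09 and 0.858% ± 0.533. Over both probes miR-214 was at least 1.30-fold higher at passage 0 and at least 3.86-fold higher at passage 1. With the brighter probe alone these bounds were 1.99-fold and 6.00-fold. With normexp background correction the passage 1 bound over both probes was 1.89-fold. At passage 0 no bound was left, and the measured log2 levels turned direction, at -1.68 under the control title and -1.70 under the NFIA OE title.

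The scanner software also sums the probes of a miRNA, and by its own gene-level call miR-214 was detected on all 4 arrays and miR-199a-5p on 3. Its total for miR-214 at passage 0 was 11.03 ± 3.72 units under the control title and 51.6 ± 5.36 under the NFIA OE title, and at passage 1 it was 13.7 ± 4.33 and 103 ± 8.78 units, with the software's own error. In the authors' deposited table, which rests on these totals, miR-214 was 2.78-fold higher by title at passage 0 and 8.15-fold at passage 1. The control-titled levels beneath these folds had no unflagged spot well above background. For miR-199a-5p the authors' deposited table held 0.274 and 1.26 under the control and NFIA OE titles at passage 0. At passage 1 it held 0.474 and 2.82. No fold per passage is given because the scanner did not detect miR-199a-5p on the primary array titled control. The authors' deposited table gave 3.94-fold and 4.03-fold for miR-199b*, and 3.04-fold and 4.71-fold for miR-199a-3p.

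miR-214*, the other strand of the Mir214 hairpin, gave no signal above background. Of its 20 spots, 0 were well above background on each array, and no array reached a median above 0, the medians being -1.41 units under the control title and -2.70 under the NFIA OE title at passage 0, and -1.33 and -1.22 units at passage 1. The highest single spot, at 9.36 units on the secondary array titled NFIA OE, was below the largest negative control of that array, at 18.3 units. No fold was therefore given for this strand.

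Among the 153 miRNAs detected on all 4 arrays, 23.5% were higher on both arrays titled NFIA OE, and limma called 2.61% by title at a Benjamini-Hochberg adjusted p under 0.05. At least 2-fold higher in both pairs were 2 of 153 (1.31%), miR-199a-3p and miR-199b*, as the choice of these miRNAs by title implies. In the primary pair alone 5.88% were at least 2-fold higher under the NFIA OE title, and in the secondary pair alone 1.96%. Besides miR-199a-5p and miR-214, 1 other miRNA, miR-705, was detected under the NFIA OE title in both passages and not under the control title, which makes 3 of 611 (0.491%). For miR-199a-5p and miR-214 this one-sided detection goes with their choice by title, so the share is no finding about them. The reverse pattern was shown by 1 miRNA, miR-592 (0.164%). miR-705 stood close to the detection limit, with 4 of 20 and 5 of 19 spots well above background on the arrays titled NFIA OE and 0 of 20 and 2 of 20 on those titled control. For miR-214 these were 17 of 19 and 20 of 20 against 0 of 20 and 0 of 18. For miR-199a-5p they were 10 of 19 and 14 of 20 against 0 of 17 and 4 of 18. miR-592 had 11 of 20 and 14 of 18 on the arrays titled control and 0 of 19 and 5 of 20 on those titled NFIA OE.

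**Figure D3:**
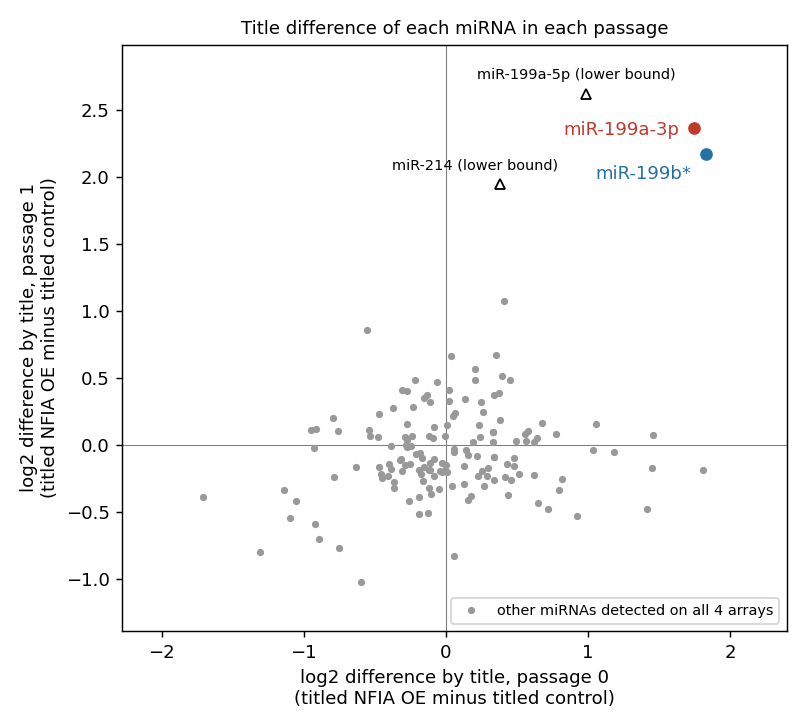
Log2 difference by title (titled NFIA OE minus titled control) at passage 0 on the horizontal axis and at passage 1 on the vertical axis. Grey points are the other miRNAs detected on all 4 arrays, filled coloured points are miR-199a-3p and miR-199b*, and open triangles are lower bounds for miR-199a-5p and miR-214. miR-199a-3p lies at 1.74 and 2.37 and miR-199b* at 1.83 and 2.17. Their passage 1 differences lie above those of the grey points, while at passage 0 a grey point lies between theirs.

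By likeness over the 4 arrays, measured as the Euclidean distance between log2 levels each centred on its own mean, miR-199b* was nearest to miR-199a-3p, at a distance of 0.196. Both were chosen for the same title pattern, so this closeness is no finding. The next were miR-455 at 1.36, miR-23b at 1.55, miR-27b at 1.62 and miR-99b at 1.76, against a median of 2.22 over the 152 other miRNAs. miR-455 differed by title by 0.41 at passage 0 and 1.07 at passage 1 on the log2 scale. miR-23b differed by 0.35 and 0.67, miR-27b by 0.40 and 0.52, and miR-99b by 0.78 and 0.08. All were higher on the arrays titled NFIA OE, as miR-199a-3p was, but each by less in both passages. They were picked by likeness to a miR-199a-3p profile that holds the title difference. The shared direction thus largely follows from that choice and is no finding either.

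The comparison of passages asked whether these miRNAs change as neurospheres are passaged and age, from day 6 to day 12. This contrast was not used to choose them. miR-199a-3p was 0.82-fold at passage 1 relative to passage 0 in the fit over all 4 arrays (log2 difference -0.29, SE 0.29, 95% interval -0.87 to 0.30, limma adjusted p = 0.446). miR-199b* was 0.894-fold (log2 -0.16, SE 0.29, 95% interval -0.75 to 0.42, limma adjusted p = 0.656). Neither was called, while 45.8% of the 153 miRNAs were called by passage, 13.1% higher and 32.7% lower. That balance followed the scaling, with 20 higher and 50 lower here against 25 and 5 when all probes set the percentile, 20 and 1 without scaling, 21 and 30 with quantile normalization and 39 and 17 with the authors' processed values. The main fit judges every miRNA against 1 pooled SD and takes the arrays as independent, although the cells of both titles were sorted from mixed cultures.

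The sign of these passage differences was not settled, since it followed the scaling between arrays. The median miRNA differed by -0.39, and relative to it miR-199a-3p stood at 0.10 and miR-199b* at 0.23. The difference was above 0 in 5 of 10 alternative settings for each, up to 0.66 and 0.79 without scaling, and 0 of 10 settings called either miRNA. Adjusted p by limma ran from 0.139 to 0.944 for miR-199a-3p and from 0.0961 to 1.0 for miR-199b*. Under the main scaling the intervals leave room for changes of up to 0.547-fold or 1.23-fold for miR-199a-3p and 0.597-fold or 1.34-fold for miR-199b*. Without scaling they run from -0.45 to 1.78 and from -0.33 to 1.90 on the log2 scale. The values do not show that the levels stayed the same.

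Within the arrays titled NFIA OE, miR-199a-3p differed by 0.02 and miR-199b* by 0.01 between passages on the log2 scale. Within those titled control they differed by -0.60 and -0.33. None of these reached 2-fold (0 of 4), a distance that 37.3% of miRNAs reached under the control title and 21.6% under the NFIA OE title. The median miRNA differed by -0.40 and -0.41 in these pairs. Relative to that median, miR-199a-3p was at 0.42 in the pair titled NFIA OE and -0.19 in the pair titled control, and miR-199b* at 0.41 and 0.08. By the dimmer miR-199b* probe, seen only under the NFIA OE title, the passage difference was -0.33.

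**Figure D4:**
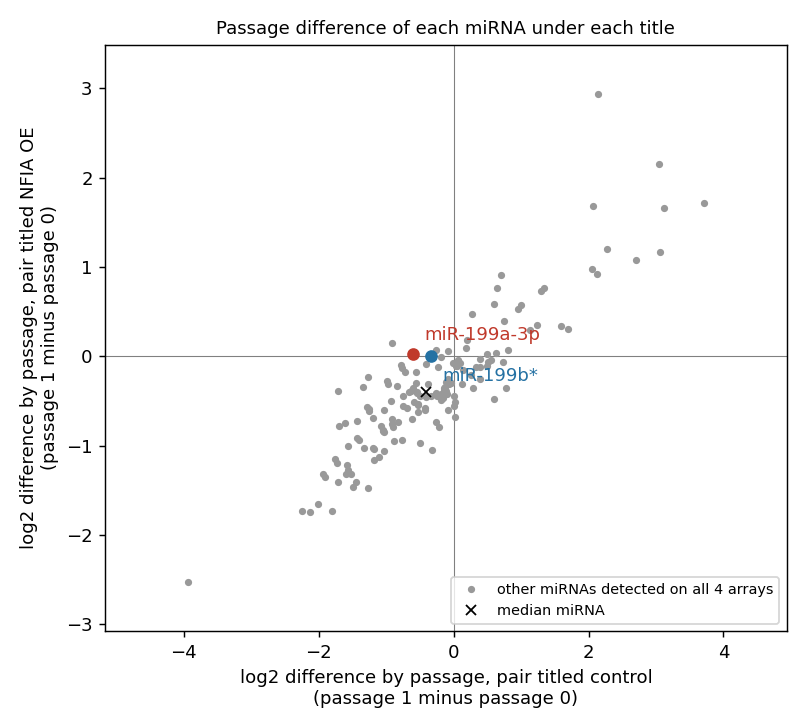
Log2 difference by passage (passage 1 minus passage 0) in the pair titled control on the horizontal axis and the pair titled NFIA OE on the vertical axis. Grey points are the other miRNAs detected on all 4 arrays, the cross is their median, and coloured points are miR-199a-3p (-0.60 and 0.02) and miR-199b* (-0.33 and 0.01). Both lie near 0 on the vertical axis, above the median miRNA at -0.40.

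miR-199a-5p and miR-214 could be compared by passage only within the arrays titled NFIA OE, where both were detected, and this has no replicate. miR-199a-5p was 1.45-fold and miR-214 1.39-fold higher at passage 1 (log2 differences 0.54 and 0.47). Among 188 miRNAs detected on both arrays titled NFIA OE, the median difference was -0.39, and 23.4% were higher at passage 1. miR-199a-5p ranked 22 and miR-214 25 in that order, against 43 for miR-199a-3p and 65 for miR-199b* over both probes. Without scaling the median was 0.11 and 59.6% were higher, with miR-199a-5p at 2.05-fold and miR-214 at 1.96-fold and their ranks as before. With normexp background correction, miR-199a-5p was at 0.17 and miR-214 at 0.05, against a median of -0.36. miR-199a-5p and miR-214 were thus above the median miRNA under both corrections, by 0.93 and 0.86 or by 0.53 and 0.41. Fewer cells of a type and less RNA per cell cannot be told apart in such pooled samples.

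miRNAs of other cell types were read beside these differences. Of 12 mesenchymal, muscle and endothelial miRNAs, 11 were on the array by name and 2 were detected, on every array. These were miR-140 and miR-140*, strands of a cartilage-enriched hairpin, and neither was higher under the NFIA OE title. miR-140 differed by -0.27 at passage 0 and -0.01 at passage 1 on the log2 scale, and miR-140* by -0.08 and -0.23. The other 9, which include miR-143 and miR-145 of smooth muscle, miR-126-3p of endothelium and miR-1, miR-133a and miR-206 of muscle, were not detected on any array. The list's share of the summed mouse miRNA signal was 0.471% and 0.305% on the primary and secondary arrays titled control and 0.425% and 0.326% on those titled NFIA OE. Shares here and below count every list member on the array, detected or not, with totals under 0 set to 0. A list with no detected member can therefore still hold a share.

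The neural list, which includes miR-9 and miR-124, had 7 to 9 of 10 members detected per array. Its share of the signal was 4.06% and 8.001% on the primary and secondary arrays titled control and 2.61% and 5.76% on those titled NFIA OE. Before scaling, miR-9 totalled 269 and 2909 units and miR-9* 129 and 2696 on the primary and secondary arrays titled control. Under the NFIA OE title miR-9 totalled 380 and 1737 units and miR-9* 203 and 1284. miR-124 did not rise, at 198 and 172 units under the control title and 141 and 99.8 under the NFIA OE title. The pluripotent list, of the miR-290 and miR-302 clusters, had 9 of 11 members detected on the primary array titled control and 10 on the primary one titled NFIA OE. In secondary neurospheres it had 1 and 7, with 0.134% and 0.310% of the signal against 3.12% and 2.61% in primary ones. Blood markers (7 on the array) had 1 detected on each primary array and 0 on each secondary one, with 0.0260% to 0.0741% of the signal. Epithelial, liver and islet markers (9 on the array) had 1 detected, miR-375, on the primary array titled control alone, with 0.0944% and 0.122% of the signal under the control and NFIA OE titles at passage 0 and 0.00472% and 0.00120% at passage 1. The part of any of these in the miR-199 and miR-214 differences was not tested.

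**Figure D5:**
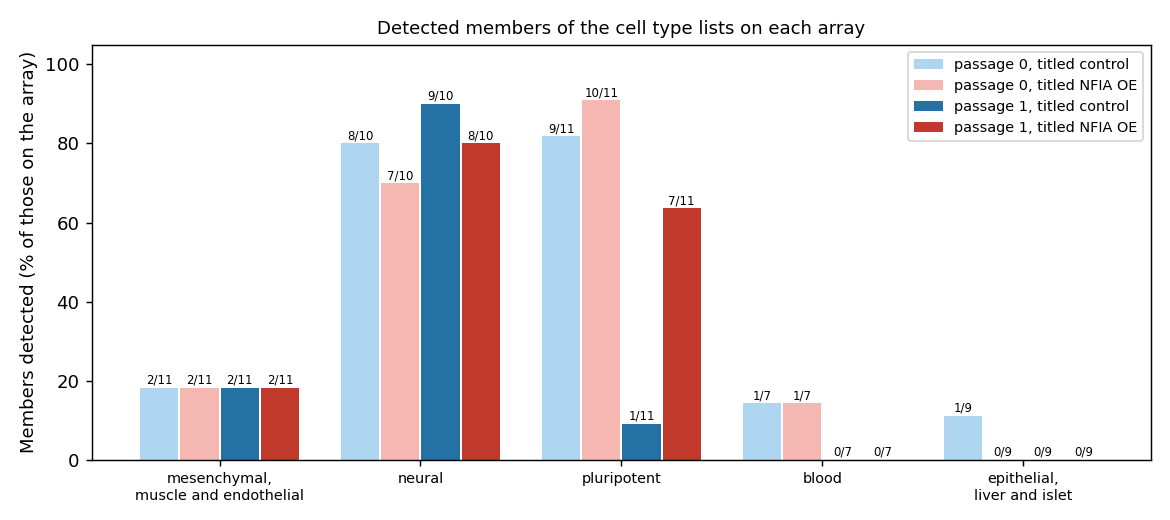
Share of the members of each cell type list detected on each array (vertical axis, percent of those on the array), with counts over the bars and colours for passage and title. The mesenchymal, muscle and endothelial list has 2 of 11 members detected on all arrays, and the pluripotent list falls from 9 and 10 of 11 to 1 and 7 of 11.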

How the data were processed

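Spot intensity in the deposited files is linear and came from Feature Extraction 10.5.1.1, with spatial detrending and background subtraction and no scaling across arrays (per the file headers). Total RNA was labelled with Cy3, per the labels' protocols. The authors' deposited table of intensities held the scanner's summed signal per miRNA over a constant that differed between arrays. Flagged spots were left out and the rest averaged per probe. Each array was divided by its 75th percentile over probes detected on all 4 arrays, and log2 was taken. Probes detected on all arrays were averaged per miRNA. limma 3.58.1 (R 4.3.3) fitted title and passage as additive terms on 153 miRNAs, which left 1 residual degree of freedom, with Benjamini-Hochberg adjustment. With 1 array per group there were no replicates, so p-values do not measure a spread between replicate arrays. They rest on how far the arrays depart from additive title and passage terms, pooled over the miRNAs. The named miRNAs are those of the rule, the 5 nearest to miR-199a-3p, those with the same one-sided detection, and the marker lists. All were chosen with earlier results of these data known.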

Additional observations from a re-analysis of the deposited data

Results flagged for a closer look

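Between passages miR-199a-3p differed by -0.60 on the log2 scale under the control title and by 0.0242 under the NFIA OE title, with opposite signs. The same held for miR-199b*, at -0.33 and 0.00688. With 1 array on each side the difference between titles was not tested. The signs are those of the main scaling, and the values under the NFIA OE title lie close to 0.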

How the results depend on the processing

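The passage difference turned positive with the percentile over all probes (0.46 for miR-199a-3p and 0.59 for miR-199b*), without scaling (0.66 and 0.79), under quantile normalization (0.0211 and 0.39), on median-centred arrays (0.19 and 0.32), in the processed values of the authors (0.36 and 0.54) and for the NFIA OE titles alone (0.0242 and 0.00688). In the pair titled control alone miR-199a-3p was at -0.60. Without scaling the median passage difference of the 153 miRNAs was 0.99 under the control title and 0.10 under the NFIA OE title, against -0.41 and -0.40. Counts called by limma by passage were 30 with the percentile over all probes, 21 without scaling and 0 with median centring (44 at an unadjusted p under 0.05) or no filter (108), against 70. The passage fit had 153 total degrees of freedom in the main setting, 4.14 with median centring and 1.43 with no filter. It had 3.91 with detection on at least 1 array and 4.88 with quantile normalization, where 82 and 51 were called. By title they were 2 with the percentile over all probes, without scaling and with quantile normalization, and 0 with median centring (6 unadjusted), no filter (38) or detection on at least 1 array (16), against 4. The cause was not tested.

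Averaged over both pairs, differences by title kept their sign in each alternative. With normexp, which adds an offset of 50 units, they fell to 1.29 for miR-199a-3p, 0.91 for miR-199b*, 0.67 for miR-199a-5p and 0.38 for miR-214, against 2.05, 2.0, 1.80 and 1.16 (lower bounds for the last pair). miR-199a-3p was at 1.74 and 2.37 in the primary and secondary pairs alone, miR-199a-5p at least at 0.98 and 2.62, and miR-214 at least at 0.38 and 1.95. With no filter, detection on at least 1 array and the authors' processed values, miR-199a-5p was at 2.82, 2.31 and 2.39 and miR-214 at 2.60, 1.55 and 2.25. The first uses undetected values as measured or, below 1 unit, at a floor, and the second sets a floor, so these are not bounds. The authors' value for miR-199a-5p includes the primary array titled control, where the scanner did not detect it, and is no bound either. With normexp, no bound above 1 was left for miR-214 in the primary pair. By the scanner's gene-level call miR-214 was detected on 4 arrays, against 2. By its brightest probe alone miR-214 was at least at 1.79. No analysis of replicate pairs was possible because each group has 1 array, although title is a term of the passage fit. Signal over background limits miR-199a-5p and miR-214 under the control title.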
